A study of Mus musculus with 16 samples.

Results

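The genes described here encode the aminoacyl-tRNA synthetases of the mouse brain. They were taken by symbol, as every gene in the count files named by a letter followed by ars, with or without a closing 2, together with Eprs, Farsa and Farsb. That gave 37 of the 43472 gene symbols, of which 20 are the cytosolic set and 17, the symbols ending in 2, are the mitochondrial set. Brain RNA was measured in 16 libraries that fall into 4 groups of 4. The Prepl knockout mice lack a serine hydrolase (prolyl endopeptidase-like) that is missing in people with Congenital Myasthenic Syndrome-22, and were set against Prepl WT mice. The PWS-IC deleted mice lack the control element of the Prader-Willi imprinted region, on which its paternally expressed genes depend, and were set against their own PWS-IC WT mice. The labels give the tissue as brain and the genotype, and no age, strain, brain region or statement that replicates are separate animals, so p-values cover the spread among the sampled libraries, which may be technical. The study set the mouse models of both syndromes side by side to ask whether they share molecular changes.

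Aminoacyl-tRNA synthetases join each amino acid to its tRNA, the step that fixes the genetic code, and each enzyme is needed wherever proteins are made. The cytosol and the mitochondrion have largely separate sets, both encoded in the nucleus, and several cytosolic enzymes are held together with the scaffold proteins Aimp1, Aimp2 and Eef1e1 in the multisynthetase complex. In people, variants of cytosolic members such as glycyl- and tyrosyl-tRNA synthetase cause peripheral neuropathy. Gars and Kars each make both the cytosolic and the mitochondrial enzyme. Mitochondrial glutamine tRNA is charged by another route, through the amidotransferase made from Gatb, Gatc and Qrsl1.

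The libraries held 3477624 to 5852716 reads in genes. Prepl itself stood at 1.64 ± 0.453 CPM (the reads of a gene per 1000000 reads in genes of its library) in Prepl knockout brains, against 34.8 ± 1.35 CPM in Prepl WT brains (SD, n = 4 each). The imprinted gene Ndn stood at 4.30 ± 1.91 CPM in PWS-IC deleted brains, against 555.6 ± 11.1 CPM in PWS-IC WT brains, so both targeted losses fit the labels. Read from Xist and Y-linked genes, the Prepl knockouts were 4 males and the Prepl WT mice 3 females and 1 male, while both PWS-IC groups held 2 of each sex. The share of tabled reads that aligned outside genes was 17.7% ± 1.25 in Prepl knockout and 16.96% ± 1.76 in Prepl WT libraries. It was 19.1% ± 1.14 in PWS-IC deleted and 12.3% ± 1.03 in PWS-IC WT libraries, ranges that did not overlap, so that this share and the deletion cannot be told apart. The 8 neuronal markers, led by Stmn2 and Tubb3, summed to 4346 to 4950 CPM over the libraries.

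All 37 synthetase genes had reads in every one of the 16 libraries, with at least 10 reads each. The libraries read transcript ends, so CPM does not grow with transcript length, and levels of different genes are compared on that scale. The gene annotation is not stated, and 25.2% to 30.9% of tabled reads fell in the total for alignments that were not unique. Ranks and ratios between genes may therefore also depend on how fully each end was counted. The cytosolic members led by a wide margin. Eprs, which charges glutamate and proline tRNAs from 1 protein, was the most abundant at 260.9 ± 17.2 CPM (SD, n = 16). Nars (asparagine) followed at 219.8 ± 21.2 CPM, Gars (glycine) at 164.6 ± 15.3 CPM and Sars (serine) at 161.3 ± 12 CPM. These 4 held 45.8% of the summed cytosolic level, and the Gars and Sars levels lay within each other's spread. A middle tier followed, from Aars (alanine) at 120.2 ± 9.10 CPM through Farsa, Kars, Farsb, Hars, Lars and Tars to Rars (arginine) at 59.1 ± 11.9 CPM. Yars (tyrosine) at 49.5 ± 5.07 CPM and Qars (glutamine) at 40.3 ± 7.35 CPM came next, and the last 6 cytosolic members, Dars, Mars, Vars, Wars, Iars and Cars, lay between 27.0 and 36.9 CPM, each within the spread of its neighbours. Cars, which charges cysteine tRNA, was the lowest at 27.0 ± 5.6 CPM.

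Iars2 (isoleucine) was the most abundant mitochondrial member, at 25.6 ± 3.14 CPM, and was so in 15 of the 16 libraries. Hars2 (histidine) followed at 20.8 ± 2.99 CPM. Then 8 members lay close together, from Yars2 at 14.8 ± 3.27 CPM to Lars2 at 10.8 ± 1.92 CPM, with each neighbour inside the next one's spread, and Aars2, Ears2, Wars2 and Nars2 lay between 6.52 and 7.73 CPM. Pars2 (proline) at 4.40 ± 1.48 CPM and Sars2 (serine) at 3.83 ± 1.08 CPM were the lowest. By mean level every cytosolic member stood above every mitochondrial one, and within single libraries that held in 8 of 16, since in the others the highest mitochondrial member exceeded the lowest cytosolic one. The gap between the enzymes for 1 amino acid was uneven. The Eprs level was 59.3 times that of Pars2 and the Sars level 42.1 times that of Sars2, whereas the Iars level was 1.22 times that of Iars2 and the Cars level 2.13 times that of Cars2 (ratios of means over 16 libraries). Iars2 shares its whole end with Rab3gap2, and Cars2 shares 215 of its last 500 bases with Naxd, both on the opposite strand. The strand setting is not given, so both smaller ratios and the rank of Iars2 are uncertain.

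**Figure D1:**
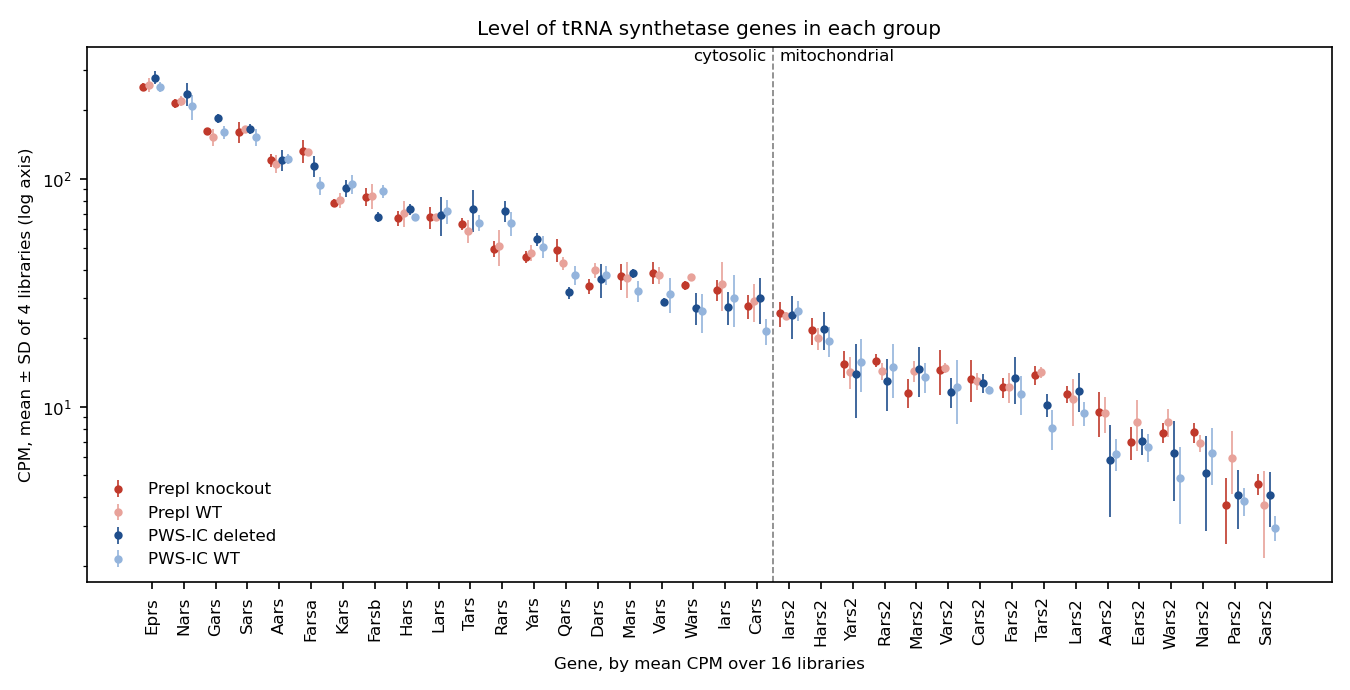
Mean CPM ± SD (n = 4 libraries) of the synthetase genes reported here in the Prepl knockout, Prepl WT, PWS-IC deleted and PWS-IC WT groups, on a log axis, ordered by the mean over 16 libraries. The cytosolic genes, left of the dashed line, run from Eprs at 260.9 CPM to Cars at 27.0 CPM, and the mitochondrial genes from Iars2 at 25.6 CPM to Sars2 at 3.83 CPM.

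The summed levels differed little between groups. The cytosolic members summed to 1754 ± 53.8 CPM in Prepl knockout and 1762 ± 93.0 CPM in Prepl WT brains, and to 1824 ± 89.4 CPM in PWS-IC deleted and 1709 ± 106 CPM in PWS-IC WT brains (SD, n = 4 each). The mitochondrial members summed to 206.2 ± 10.4 CPM in Prepl knockout and 207 ± 8.08 CPM in Prepl WT brains, and to 188.8 ± 16.3 CPM in PWS-IC deleted and 183.9 ± 19.8 CPM in PWS-IC WT brains. Each mutant differed from its own wild types by little more than 1 SD or less in both sums.

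No synthetase gene was called in the Prepl knockout. edgeR's quasi-likelihood test with Benjamini-Hochberg adjustment called 0 of the 37, where 0.262% of all 13722 genes tested were called in either direction. DESeq2 and limma voom called 0 as well. At an unadjusted p under 0.05 there were 2 members, Pars2 and Qars, which is 5.41% of the members, against 9.43% of all genes tested. The median log2 fold change was 0.01 for the 20 cytosolic and 0.05 for the 17 mitochondrial members, against 0.00 over all genes tested. Of the members, 22 lay above 0 and 15 below, so that 59.5% lay above 0, against 50.1% of all genes. For none did the groups separate, whereas they did for 5.69% of all genes. Since the knockouts were all male and the wild types mostly female, a fit with sex as a term was made too, and it also called 0. Only 1 Prepl WT library was male, so that fit separates genotype from sex poorly. It called 6 genes in all, against 36 without the term, so its 0 adds little.

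Qars, which charges glutamine tRNA and belongs to the multisynthetase complex, had 42.7, 46.0, 51.3 and 55.6 CPM in the Prepl knockout libraries, against 42.2, 46.9, 41.4 and 40.2 CPM in Prepl WT libraries. The highest knockout libraries exceeded every wild type, and the lowest lay among them, at a log2 difference of 0.23 ± 0.101 (SE; edgeR adjusted p = 0.476). Dars, the aspartate enzyme of the same complex, had 32.5, 31.8, 37.4 and 33.4 CPM in knockout libraries, against 39.3, 39.8, 43.5 and 36.0 CPM in Prepl WT libraries. Its log2 difference was -0.20 ± 0.104 and the ranges overlapped (edgeR adjusted p = 0.576). Gars gave 160.5, 165.1, 155.5 and 166.2 CPM in knockout libraries, against 135.7, 157.6, 148.8 and 165.9 CPM in Prepl WT libraries. Its ranges overlapped, and its log2 difference of 0.12 ± 0.0721 became -0.006 with sex as a term. That fit also moved Dars to -0.06 ± 0.166.

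Among the mitochondrial members Pars2 showed the largest value, -0.66 ± 0.283 (SE; edgeR adjusted p = 0.472). It rests on few reads, 77 over the Prepl knockout libraries and 130 over the Prepl WT libraries. Its levels were 3.12, 3.77, 5.32 and 2.58 CPM in knockout libraries, against 4.86, 6.20, 8.45 and 4.38 CPM in Prepl WT libraries, with replicate 3 of the knockouts inside the wild-type range. Mars2, for methionine, had 11.3, 13.9, 10.1 and 10.9 CPM in knockout libraries, against 14.4, 15.3, 15.5 and 12.2 CPM in Prepl WT libraries, a log2 difference of -0.28 ± 0.164. Rars2, for arginine, had 15.6, 17.1, 16.5 and 14.7 CPM in knockout libraries, against 15.5, 14.8, 12.6 and 14.3 CPM in Prepl WT libraries, a log2 difference of 0.20 ± 0.147. Both ranges overlapped and neither gene was called. With sex as a term Pars2 lay at -0.21 ± 0.458 and Mars2 at -0.05 ± 0.264.

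In the fit without sex as a term, the cytosolic members were bounded closely. An approximate 95% interval of the Prepl log2 difference was taken as 1.96 SE to each side, which is somewhat narrower than the F-test implies. For all 20 of them it lay within 0.5 of 0, from -0.40 for the low end of Dars to 0.43 for the high end of Qars. For the mitochondrial members, which had fewer reads and standard errors of 0.12 to 0.299, the interval lay within 0.5 for 11 of 17. Sex and genotype largely coincide in these groups, so the intervals bound the difference between the groups and not the effect of the knockout alone.

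In PWS-IC deleted brains 1 synthetase gene was called. Farsb fell, and the other 36 were not called by edgeR's quasi-likelihood test with Benjamini-Hochberg adjustment. That is 2.70% of the members, against 4.52% of the 13636 genes tested, and for calls lower in the deleted brains, 1.55% of all genes. At an unadjusted p under 0.05 there were 5 members, 13.5% of them against 18.2% of all genes. All 5 (Farsb, Farsa, Cars, Gars and Mars) were cytosolic, or 25% of that set. Mitochondrial members had larger standard errors, with a median of 0.213 against 0.105, and so were less likely to pass. The median log2 fold change was 0.11 for cytosolic and 0.10 for mitochondrial members, against -0.01 over all genes tested. Of the members 22 lay above 0 and 15 below, or 59.5% above against 47.6% of all genes. Groups separated for Farsb, Mars and Hars, or 8.11% of the members against 11.8% of all genes.

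Farsb encodes the beta subunit of the cytosolic phenylalanyl-tRNA synthetase, a tetramer of paired alpha and beta subunits. It had 71.2, 70.4, 66.4 and 64.4 CPM in PWS-IC deleted libraries, against 85.3, 88.4, 83.2 and 96.1 CPM in PWS-IC WT libraries. Every deleted library lay below every wild type. The log2 fold change was -0.37 ± 0.0927 (SE; edgeR adjusted p = 0.0267), with a 95% interval of -0.55 to -0.18. DESeq2 and limma voom also called it. The call was lost without PWS-IC WT replicate 4 (edgeR adjusted p = 0.0949), PWS-IC deleted replicate 3 (0.0773) or PWS-IC deleted replicate 4 (0.0818). With the outside-gene share of each library as a covariate the value was -0.16 ± 0.354 (adjusted p = 0.999), and that fit called only 4 genes in all.

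The alpha subunit, Farsa, ran the other way without being called. Its levels were 106.6, 101.4, 126.2 and 122.0 CPM in PWS-IC deleted libraries, against 87.0, 86.3, 102.8 and 98.4 CPM in PWS-IC WT libraries. The ranges met at a single pair of libraries. The log2 difference was 0.29 ± 0.0914 (SE; edgeR adjusted p = 0.0758), and it passed with sex as a term (0.29, adjusted p = 0.0215) and in a fit of all 16 libraries (0.29, adjusted p = 0.0328). The Farsa level was 1.5, 1.44, 1.90 and 1.90 times that of Farsb in the PWS-IC deleted libraries, against 1.02, 0.976, 1.24 and 1.02 times in the PWS-IC WT libraries. The ratio was 1.59 ± 0.109 in Prepl knockout and 1.58 ± 0.192 in Prepl WT libraries (SD, n = 4 each). It was chosen after its values were seen and is a description with no test. The PWS-IC WT libraries stood apart from the other 3 groups in it.

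The promoters of both subunit genes are shown because their levels ran opposite ways in the PWS-IC comparison, each in the orientation of its gene. The windows run from 250 bases before to 50 bases after the annotated start of RefSeq's GRCm38.p6. Capitals mark a match to the motif of NRF1, a factor of many housekeeping and mitochondrial genes (GCGC, any base and TGCGC, on either strand), in Farsb and to that of ETS factors (CCGGAAG on either strand) in Farsa.
Farsb (chr1:78488848-78489147, minus strand): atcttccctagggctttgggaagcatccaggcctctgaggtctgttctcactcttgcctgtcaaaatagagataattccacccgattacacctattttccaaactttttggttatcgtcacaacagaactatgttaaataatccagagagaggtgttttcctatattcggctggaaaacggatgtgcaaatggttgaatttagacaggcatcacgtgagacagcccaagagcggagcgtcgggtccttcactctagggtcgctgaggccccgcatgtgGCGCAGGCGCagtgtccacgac
Farsa (chr8:84856736-84857035, plus strand): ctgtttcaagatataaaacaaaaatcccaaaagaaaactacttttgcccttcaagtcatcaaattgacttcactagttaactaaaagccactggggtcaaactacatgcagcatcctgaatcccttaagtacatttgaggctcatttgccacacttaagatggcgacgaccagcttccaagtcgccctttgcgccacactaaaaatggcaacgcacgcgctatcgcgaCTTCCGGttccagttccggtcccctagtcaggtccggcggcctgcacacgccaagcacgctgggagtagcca
The Farsb gene spans 78417975 to 78488897 of chromosome 1 and Farsa 84856989 to 84869257 of chromosome 8 in GENCODE M21. The NRF1 letters occurred in 18.5% of the 27 members with a window, against 4.6% of all 32851 windows, and the ETS letters in 33.3% against 8.86%. A match to letters is not evidence of binding.

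**Figure D2:**
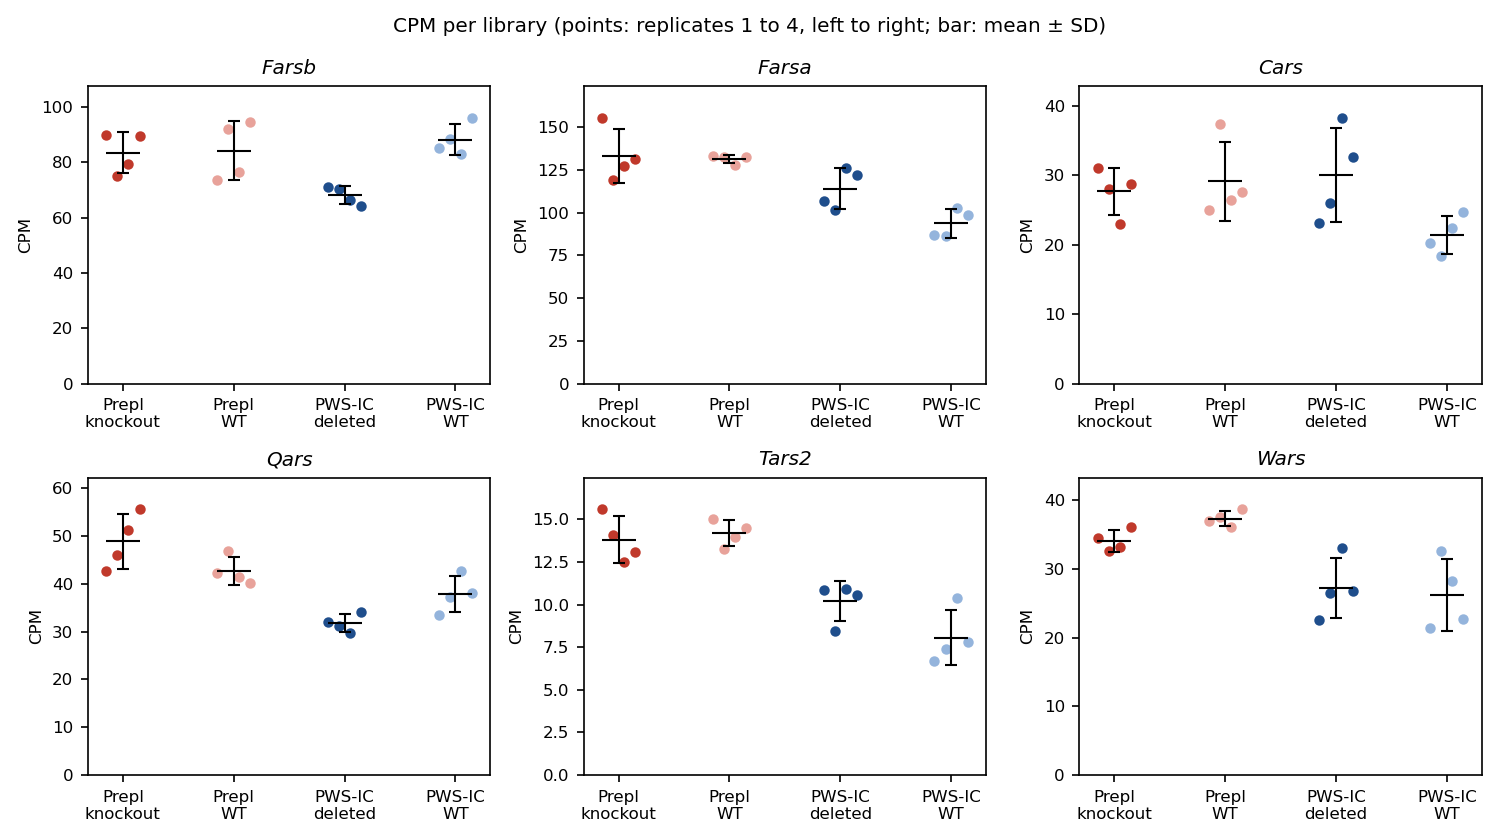
CPM of Farsb, Farsa, Cars, Qars, Tars2 and Wars in each library (points, replicates 1 to 4 from left to right) with the mean ± SD of 4 libraries, for Prepl knockout, Prepl WT, PWS-IC deleted and PWS-IC WT groups. Farsb lay at 64.4 to 71.2 CPM in PWS-IC deleted and 83.2 to 96.1 CPM in PWS-IC WT libraries, and Farsa at 86.3 to 102.8 CPM in PWS-IC WT and 127.9 to 133 CPM in Prepl WT libraries.

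Cars had the largest positive log2 difference of the members, 0.49 ± 0.155 (SE; edgeR adjusted p = 0.0789). It had 23.1, 26.0, 38.2 and 32.6 CPM in PWS-IC deleted libraries, against 20.2, 18.4, 22.4 and 24.8 CPM in PWS-IC WT libraries. Replicates 2, 3 and 4 of the deleted group exceeded every wild type, and replicate 1 lay among them. It passed with sex as a term (0.48, adjusted p = 0.0212), in the fit of all 16 libraries (0.49, adjusted p = 0.0435) and without PWS-IC deleted replicate 1 (0.58, adjusted p = 0.049). So 3 members were called under either of the first 2 settings. Gars was at 184.5 ± 8.94 CPM in PWS-IC deleted and 160.1 ± 11 CPM in PWS-IC WT brains, a log2 difference of 0.21 ± 0.0828 (adjusted p = 0.17).

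Mars and Hars, named after their values were seen, separated the groups without being called. Mars, the methionine enzyme, had 38.3, 41.0, 36.8 and 38.3 CPM in PWS-IC deleted libraries, against 28.5, 30.1, 36.0 and 33.7 CPM in PWS-IC WT libraries, a log2 difference of 0.28 ± 0.117 (edgeR adjusted p = 0.206). Hars, for histidine, had 70.25 to 78.2 CPM in deleted libraries, against 66.1 to 70.25 CPM in PWS-IC WT libraries, whose ends meet to the printed digits, and its log2 difference was 0.11 ± 0.0903. Qars lay at 31.8 ± 1.89 CPM in PWS-IC deleted and 37.9 ± 3.73 CPM in PWS-IC WT brains, -0.24 ± 0.117 (adjusted p = 0.281).

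The 3 mitochondrial members with the smallest p all lay above 0 and none was called. Lars2 (leucine) had 8.90, 10.9, 14.1 and 13.1 CPM in PWS-IC deleted libraries, against 8.20, 10.6, 10.01 and 8.57 CPM in PWS-IC WT libraries, a log2 difference of 0.34 ± 0.199. Tars2 (threonine) had 10.8, 8.44, 10.9 and 10.5 CPM in deleted libraries, against 6.66, 7.38, 10.4 and 7.81 CPM in PWS-IC WT libraries, a log2 difference of 0.34 ± 0.208. Sars2 had 2.65, 5.02, 4.89 and 3.80 CPM in deleted libraries, against 2.39, 3.22, 3.09 and 3.05 CPM in PWS-IC WT libraries, a log2 difference of 0.47 ± 0.313. All ranges overlapped. With the outside-gene share of each library as a covariate the values were 0.565 ± 0.784 for Lars2, 0.11 ± 0.828 for Tars2 and 1.54 ± 1.17 for Sars2. The 95% interval lay within 0.5 of 0 for 17 of 20 cytosolic but 4 of 17 mitochondrial members, so for most mitochondrial members the interval reached beyond that size.

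The multisynthetase complex holds the cytosolic members Dars, Eprs, Iars, Kars, Lars, Mars, Qars and Rars. Of these 8, 0 were called by edgeR in each mutant, against 0.262% of all genes in the Prepl and 4.52% in the PWS-IC comparison. At an unadjusted p under 0.05 there was 1 of 8 in each, Qars in the Prepl knockout and Mars in PWS-IC deleted brains, against 9.43% and 18.2% of all genes. Their median log2 difference was 0.01 in the Prepl comparison and -0.05 in the PWS-IC comparison. The 12 members outside the complex had medians of 0.01 and 0.12. The scaffold genes Aimp1, Aimp2 and Eef1e1 gave 0 calls of 3 in both, with 0 at an unadjusted p under 0.05, with Eef1e1 at -0.20 ± 0.123 in the Prepl knockout and Aimp1 at 0.18 ± 0.101 in PWS-IC deleted brains.

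The mutant effects were also set against each other in one fit of 16 libraries, as the Prepl effect minus the PWS-IC effect. edgeR called 0 of 37 members, where 0.778% of 14392 genes were called, and DESeq2 and limma voom called 0 too. At an unadjusted p under 0.05 there were 3 members, 8.11% of them against 11.7% of all genes: Qars, Farsb and Cars. Qars differed by 0.47 ± 0.152 (SE; adjusted p = 0.17), Farsb by 0.38 ± 0.132 (adjusted p = 0.201) and Cars by -0.53 ± 0.208 (adjusted p = 0.287). Farsa differed by -0.24 ± 0.12 (adjusted p = 0.438). These 4 were named after their values were seen.

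**Figure D3:**
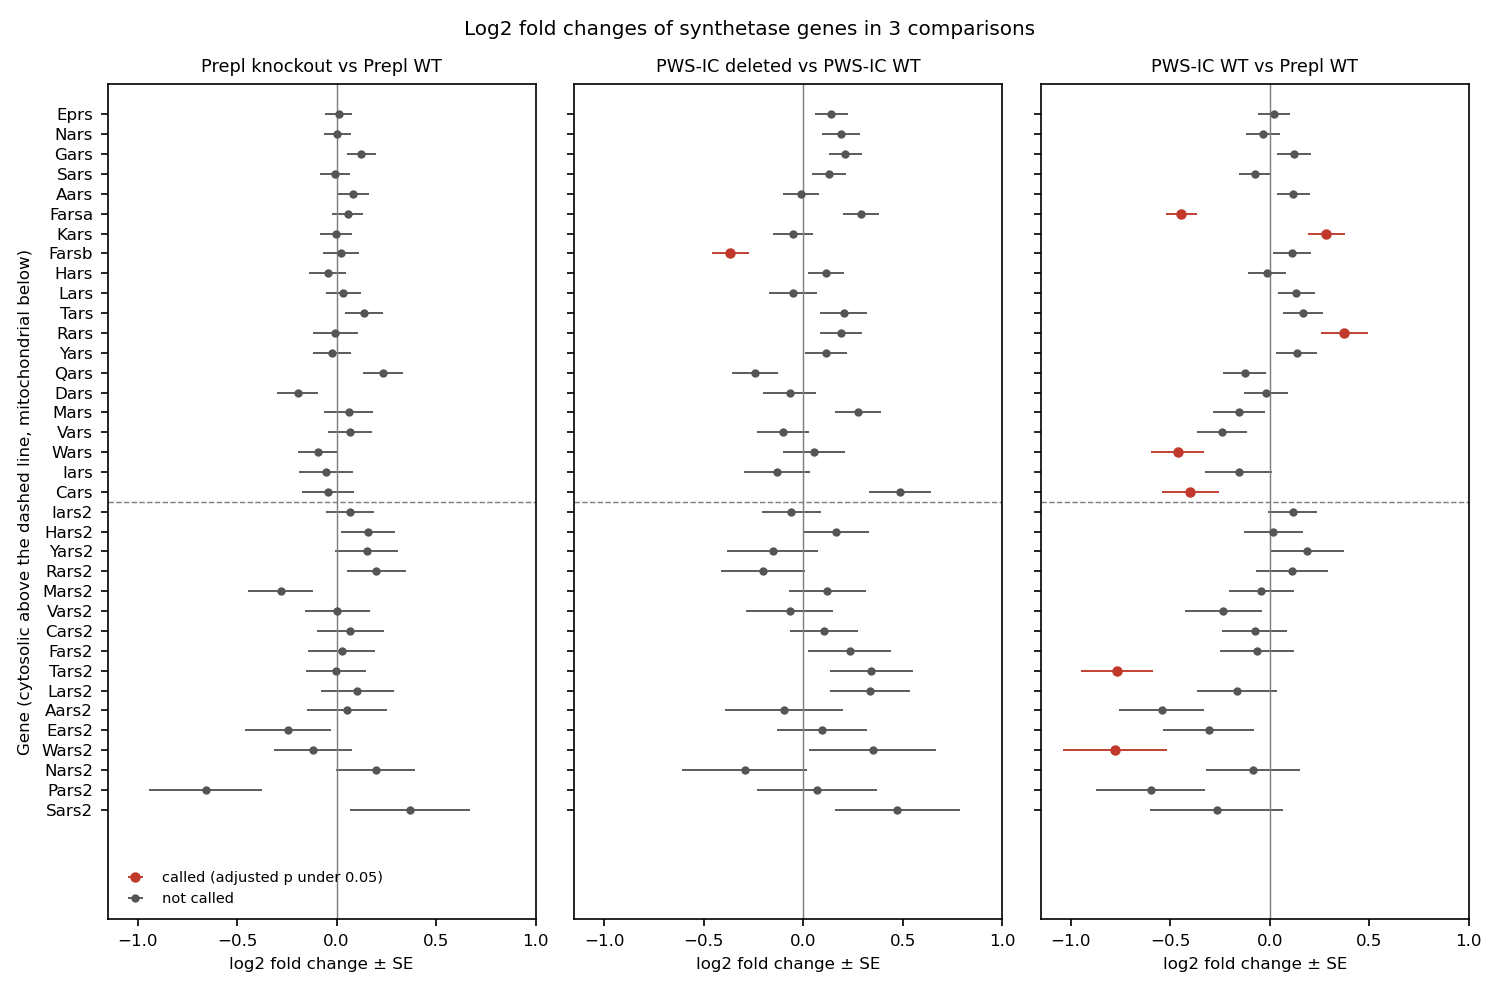
Log2 fold change ± SE of the synthetase genes reported here in the Prepl knockout against Prepl WT, in PWS-IC deleted against PWS-IC WT, and in PWS-IC WT against Prepl WT, with called genes (edgeR adjusted p under 0.05) in red. No gene is called in the first panel, Farsb alone in the second at -0.37, and 7 in the third.

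The wild-type groups also differed between themselves. Set against Prepl WT, PWS-IC WT libraries had 7 members called by edgeR's quasi-likelihood test (18.9%), where 23.8% of all 13756 genes tested were called. Of the 7, 2 were higher and 5 lower in PWS-IC WT, where 11.8% of all genes were higher and 12% lower. The groups separated for the 5 lower ones, 13.5% of the members, against 24.7% of all genes. The labels do not say how the groups of mice or libraries were made, and the PWS-IC WT and Prepl WT libraries also differ in the share of reads outside genes, so origin, processing and genotype background cannot be told apart. With that share as a covariate edgeR called 0 members.

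Farsa and Tars2 were called with each of the 8 libraries left out in turn. Farsa had 87.0, 86.3, 102.8 and 98.4 CPM in PWS-IC WT libraries, against 133.0, 132.3, 127.9 and 132.6 CPM in Prepl WT libraries, without overlap. Its log2 fold change was -0.44 ± 0.08 (SE; edgeR adjusted p = 0.000351). Tars2 had 6.66, 7.38, 10.4 and 7.81 CPM in PWS-IC WT libraries, against 15.03, 13.3, 14.0 and 14.5 CPM in Prepl WT libraries, again apart, with a log2 fold change of -0.77 ± 0.182 (adjusted p = 0.00373). The Farsa level of PWS-IC deleted brains, 114.1 ± 11.9 CPM, lay between those of PWS-IC WT and Prepl WT brains. Both comparisons of Farsa share the PWS-IC WT libraries.

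Each of the other 5 calls was lost when 1 or another library was left out. Wars, for tryptophan, had 21.4, 32.6, 28.2 and 22.7 CPM in PWS-IC WT libraries, against 36.9, 37.6, 36.0 and 38.7 CPM in Prepl WT libraries (log2 -0.46 ± 0.132, edgeR adjusted p = 0.0134). Every PWS-IC WT library lay lower, and the call was lost without PWS-IC WT replicate 1 or 4 (adjusted p = 0.0593 and 0.0586). Its mitochondrial counterpart Wars2 had 2.73, 6.63, 4.00 and 6.09 CPM in PWS-IC WT libraries, against 9.72, 8.27, 9.31 and 7.05 CPM in Prepl WT libraries (log2 -0.78 ± 0.259, adjusted p = 0.0324). The groups did not overlap, and the call was lost without any 1 of 5 libraries, Prepl WT replicates 1, 2 and 3 and PWS-IC WT replicates 1 and 3 (adjusted p up to 0.118), and with sex as a term (0.0605). Cars had 20.2, 18.4, 22.4 and 24.8 CPM in PWS-IC WT libraries, against 25.0, 37.4, 26.4 and 27.6 CPM in Prepl WT libraries (log2 -0.40 ± 0.144, adjusted p = 0.0468). The groups did not overlap, and the call was lost without Prepl WT replicate 2 or 4 or PWS-IC WT replicate 1, 2 or 3 (adjusted p up to 0.24), as by DESeq2 (0.0541), by limma voom (0.0513), with sex as a term (0.0808) and under 2 further settings of 11.

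Both genes that were higher, Rars and Kars, belong to the multisynthetase complex. Of its 8 enzymes 25% were called, as were 25% of the 12 cytosolic ones outside it (3, all lower), against 23.8% of all genes. The complex enzymes lay 4 above and 4 below 0, with a median of 0.00. Rars had 57.9, 57.4, 65.9 and 73.9 CPM in PWS-IC WT libraries, against 44.2, 42.2, 61.4 and 54.9 CPM in Prepl WT libraries (log2 0.38 ± 0.117, edgeR adjusted p = 0.0227). It was lost without Prepl WT replicate 1 or 2 or PWS-IC WT replicate 4 (adjusted p up to 0.108), and with the outside-gene share as a covariate its sign turned, at -0.007. Kars had 83.55, 106.2, 95.2 and 95.6 CPM in PWS-IC WT libraries, against 77.35, 89.4, 75.9 and 80.0 CPM in Prepl WT libraries (log2 0.28 ± 0.0913, adjusted p = 0.026). It was lost without Prepl WT replicate 1, 3 or 4 or PWS-IC WT replicate 2 or 4 (adjusted p up to 0.0886), or when scaled by library size alone (0.064). Ranges of both genes overlapped.

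**Figure D4:**
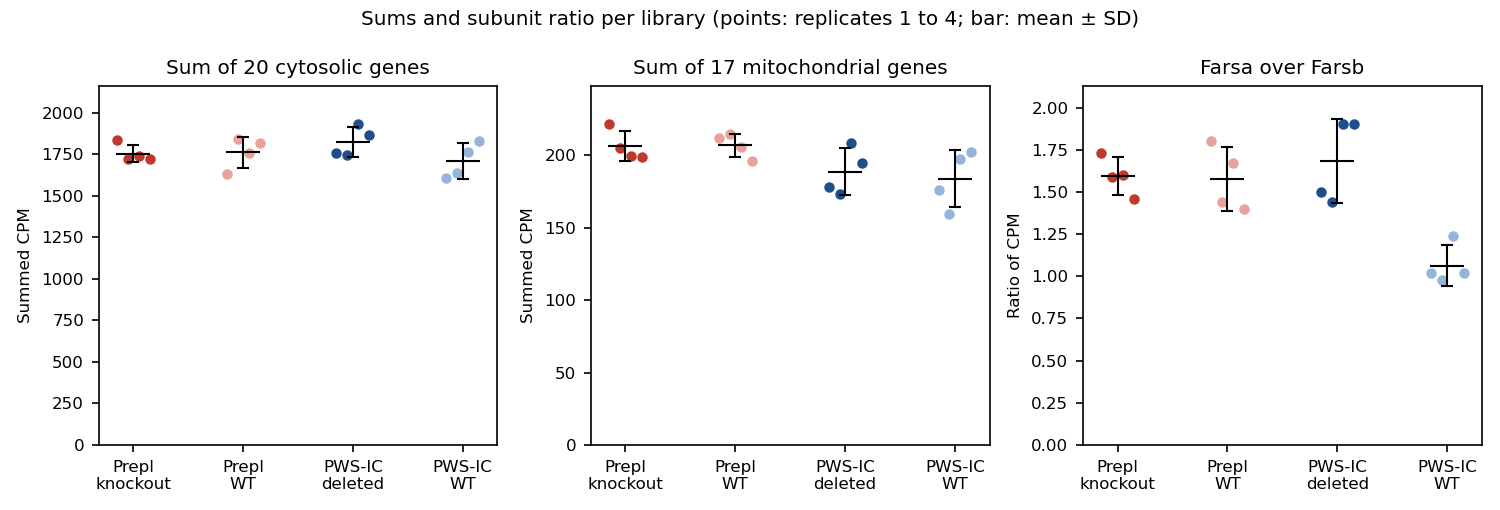
Summed CPM of the 20 cytosolic and of the 17 mitochondrial synthetase genes, and the ratio of Farsa to Farsb CPM, in each library (points) with the mean ± SD of 4 libraries, for Prepl knockout, Prepl WT, PWS-IC deleted and PWS-IC WT groups. The cytosolic sums lie at 1606 to 1929 CPM over the 4 groups, and the ratio at 0.976 to 1.24 in PWS-IC WT libraries and 1.40 to 1.90 in the rest.

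ATF4, a transcription factor made when amino acids run short or the endoplasmic reticulum is stressed, is known to activate several cytosolic synthetase genes. A sequence it can bind with C/EBP partners reads TGATGNAA. Of the members with a RefSeq window, 5 of 13 cytosolic and 0 of 14 mitochondrial ones hold these letters on either strand, against 3.97% of all windows. They are shown, from the same RefSeq windows, with 8 bases on each side, the letters in capitals, in the orientation of the gene.
Aars (chr8:111033722-111033745): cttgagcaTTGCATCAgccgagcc
Aars (chr8:111033843-111033866): gggtcactTTTCATCAgagcgctc
Gars (chr6:55037963-55037986): ctgcgctaTTTCATCAtgcaccgg
Iars (chr13:49682129-49682152): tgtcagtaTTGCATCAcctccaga
Tars (chr15:11399658-11399681, minus strand): gagtcccgTTGCATCAgctggtta
Yars (chr4:129189898-129189921): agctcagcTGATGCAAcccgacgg
In PWS-IC deleted brains the log2 differences of these genes were -0.01 ± 0.0902 for Aars, 0.21 ± 0.0828 for Gars, -0.13 ± 0.167 for Iars, 0.20 ± 0.12 for Tars and 0.12 ± 0.106 for Yars, none of them called. In the Prepl knockout they lay between -0.05 and 0.14.

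Of the 28 other ATF4-associated genes tested, 1 was called in PWS-IC deleted brains, and it was Atf4 itself. It rose to 216.7 ± 24.4 CPM in PWS-IC deleted brains, against 162.0 ± 13.6 CPM in PWS-IC WT brains, by 0.43 ± 0.0987 on the log2 scale (edgeR adjusted p = 0.0158). Of all genes tested 4.52% were called there. The median of the 28 was -0.09 and 8 lay above 0. At an unadjusted p under 0.05 there were 5 of the 28, against 18.2% of all genes. Beside Atf4 these were the amino acid transporter genes Slc3a2 at -0.37 ± 0.109 (adjusted p = 0.057), Slc7a11 at -0.72 ± 0.233 (0.0829) and Slc38a2 at -0.24 ± 0.112 (0.27), and Cebpg, a C/EBP factor, at -0.71 ± 0.266 (0.143), named after their values were seen. In the Prepl knockout edgeR called 0 of 28, with 0 at an unadjusted p under 0.05. Against Prepl WT, PWS-IC WT brains had 4 of the 28 higher, where 11.8% of all genes were higher, and 1 lower, where 12% were lower. The higher ones were Slc7a5, Herpud1, Phgdh and Atf4 and the lower one Gpt2, with the transporter Slc7a5 at 59.0 ± 5.40 CPM, against 19.3 ± 6.18 CPM (log2 1.66 ± 0.158, adjusted p = 1.28e-07). The 12 genes of the kinases that sense such stress and of their targets gave 0 calls by edgeR in either mutant, with 1 at an unadjusted p under 0.05 in the Prepl knockout (Eif2ak1, an eIF2 kinase, at -0.22 ± 0.0951) and 3 in PWS-IC deleted brains (Eif2b5 at 0.25 ± 0.0941, Eif2s1 at -0.37 ± 0.143 and Impact at -0.22 ± 0.0986, all named after their values were seen), where 9.43% and 18.2% of all genes lay under it.

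Other genes around the synthetases gave few calls. Of 24 genes for mitochondrial tRNA maturation and translation, 0 were called by edgeR in either mutant, with 2 at an unadjusted p under 0.05 in the Prepl knockout (Tsfm, a mitochondrial elongation factor, at -0.55 ± 0.2, and Gtpbp3, a tRNA modifier, at 0.52 ± 0.234) and 1 in PWS-IC deleted brains (Nsun3, a tRNA methylase, at 0.48 ± 0.199). That was 2 and 1 of 24, against 9.43% and 18.2% of all genes. Of 10 tested genes for related tRNA functions, 1 was called in PWS-IC deleted brains, where 4.52% of all genes were called. It was Eef1a1, the elongation factor that delivers charged tRNA to the ribosome. Eef1a1 stood at 244.7 ± 19.1 CPM in PWS-IC deleted brains, against 183.7 ± 39.3 CPM in PWS-IC WT brains (log2 0.42 ± 0.12, edgeR adjusted p just under the threshold, 0.05 as rounded). Its level was 292 ± 27.4 CPM in Prepl knockout and 295.6 ± 13.4 CPM in Prepl WT brains, so PWS-IC WT was the lowest of the 4 groups.

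Markers of other tissues differed between the PWS-IC groups beside these results. Of 6 blood genes 4 were lower in PWS-IC deleted libraries, where 1.55% of all genes were lower, and their sum was 1333 to 1821 CPM in deleted and 1946 to 4142 CPM in PWS-IC WT libraries. Of 8 meningeal fibroblast genes 5 were lower, with sums of 556.4 to 638.4 CPM in deleted and 635.1 to 1306 CPM in PWS-IC WT libraries. Of 7 tested choroid plexus genes 3 were lower (sums of 404.6 to 1727 CPM in deleted and 1417 to 2186 CPM in PWS-IC WT libraries), as were Cnp among 6 oligodendrocyte genes and Csf1r among 7 microglial ones, while edgeR called 0 of 8 neuronal, 0 of 8 astrocyte and 0 of 6 endothelial genes (1, 2 and 2 at an unadjusted p under 0.05). In the Prepl comparison the globin Hba-a2 was the sole marker called, at -3.60 ± 0.723. Its Prepl WT libraries spread from 1.38 to 50.9 CPM (25.9 ± 27.7), a range that holds all knockout libraries, at 1.59 to 2.38 CPM. Set against Prepl WT, PWS-IC WT libraries had 5 of 6 blood and 4 of 7 choroid plexus genes higher and 3 of 6 oligodendrocyte genes lower, where 11.8% of all genes were higher and 12% lower. The neuronal genes Syt1 (-0.43 ± 0.0918) and Gad2 (-0.46 ± 0.0826) were also lower, the remaining 6 neuronal genes were not called, and of 8 astrocyte genes 1 was higher and 2 were lower. The microglial Tmem119, the meningeal Ptgds and the endothelial Flt1 were lower, each the sole gene called of its list. None of the markers but Mog was at 0 throughout a PWS-IC group. Their part in the synthetase results was not tested, and in bulk tissue fewer cells of a type and less RNA per cell cannot be told apart.

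The counting leaves some members uncertain. The authors' strand setting is not given in the sources used here, and 14 members share exon bases with another gene, 7 of them with a gene on the opposite strand within the last 500 bases, where the reads fall. The last 500 bases of Farsb share 248 bases with Sgpp2, which had 124 reads over all libraries against 6671 for Farsb. Iars2 shares its whole end with Rab3gap2 (1836 reads against 2095) and Fars2 with Nrn1 (5165 reads against 998). Reads counted as ambiguous between genes were held in a total without a gene name, at 0.39% to 0.479% of tabled reads. Depending on the strand setting, the counts of these 2 members may lack reads of their own or hold reads of the partner. Aars shares the whole of its last 500 bases with Exosc6 on the same strand, a gene not analysed here, so the Aars reads may include those of Exosc6 whatever the strand setting. Cars2 shares 215 of its last 500 bases with Naxd on the opposite strand, also a gene not analysed here, and Mars shares 68 bases with Ddit3. The end of Iars matches the pseudogene Gm4849 at 96.2% over 395 bases, with 12 reads counted there.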

How the data were processed

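Total RNA of 16 mouse brain libraries was prepared with the Lexogen QuantSeq kit, which captures poly(A) tails and reads transcript ends, per the labels. The deposited values are counts, whole reads per library over 43472 gene symbols, made by the authors with HISAT2, HTSeq and the mm10 genome, per the submitters' processing notes. Of versions, gene annotation and strand setting nothing is stated: they were not given in the sources used here. Each table also holds 5 totals without a gene name. These were left out of library sizes and tests. Reads aligned outside genes made up 11.4% to 20.1% of tabled reads.

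CPM were computed here from the counts and the reads in genes. The deposited counts were tested in edgeR 4.0.16 (R 4.3.3). Genes were kept by filterByExpr at its default minimum count of 10 and minimum total of 15, scaled by TMM, and tested by quasi-likelihood F-test. P-values were adjusted over all genes tested by the Benjamini-Hochberg method, with a threshold of 0.05. Each mutant was fitted with its own wild types, the difference of the mutant effects on all 16 libraries, and the wild-type groups against each other. All 37 members passed the filter in each fit. The size of each log2 fold change over the square root of its F gave the standard error. The fit was also run on simulated counts with planted changes larger than that of Farsb, so that run does not bear on effects of this size. Alternatives were RLE, upper-quartile and library-size scaling, other filters, DESeq2 1.42.0, limma 3.58.1 voom, a term for the replicate number, for sex or for the outside-gene share of reads, a joint fit of the 4 groups, and omission of each library in turn. Each pair of replicates differed by more than counting noise (lowest chi-square per degree of freedom 2.52). Deviations of same-numbered libraries correlated at -0.08 to 0.18 between groups. In the PWS-IC comparison 3 of 4 pairs exceeded 0.1, and same-numbered libraries share their sex. Since not every pair exceeded 0.1 and no label states a pairing, the replicate term was kept as an alternative.

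The members and lists were chosen with earlier results of these data known. Members named with every library's value are those called in any comparison and, in each mutant, the 3 cytosolic and 3 mitochondrial ones with the smallest p; of other lists, called genes, else up to 2 with the smallest p, beside those said to be named after their values were seen. Gene positions are from GENCODE M21 and promoters from RefSeq, both of GRCm38, which mm10 denotes; 27 members matched a promoter. The results of 1 member are not reported here; it stayed in every test, sum and count.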

Additional observations from a re-analysis of the deposited data

Results flagged for a closer look

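Among the 16 named genes, 64 groups of 4 libraries were examined for a library far from the other 3, and 2 had one; chance gives about 1 in 20. Farsa stood at 127.9 CPM in Prepl WT replicate 3, against 132.3 to 133 CPM in the other 3 libraries of that group, a gap of 0.851 of the whole range. Tars2 stood at 8.44 CPM in PWS-IC deleted replicate 2, against 10.5 to 10.9 CPM in the others, a gap of 0.839 of the range. Both gaps passed Dixon's 95% critical value of 0.829.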

How the results depend on the processing

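In the Prepl comparison 0 synthetase genes were called under each of the 11 settings and with each of the 8 libraries left out. All-gene calls, 36 as reported, became 156 without a filter, 6 with sex, 61 with the share of reads outside genes, 18 in the fit of all 16 libraries and 12 to 103 with a library left out; Gars turned to -0.006 with sex. In the PWS-IC comparison, 1 synthetase gene as reported became 3 with the replicate block, with sex and in the fit of all 16 libraries, 0 with the share of reads outside genes, and 0 to 2 with a library left out. Farsa and Cars were the added ones. In the PWS-IC groups replicates 1 and 2 were male and 3 and 4 female, so the replicate block there also holds sex; 2 of 4 PWS-IC and 1 of 4 Prepl libraries correlated best with their own number. All-gene calls there, 616, became 945 without a filter, 989 with the replicate block, 1119 with sex, 4 with the share of reads outside genes, 999 in the fit of all 16 and 362 to 653 with a library left out. For the difference of mutant effects, 0 synthetase genes were called under its 10 settings and 16 omissions, and all-gene calls, 112, became 222 without a filter, 170 by DESeq2, 235 with sex, 14 with the share outside genes and 67 to 134 with a library left out. Between the wild types, 7 synthetase genes became 0 and 3275 genes became 221 with the share outside genes, where Rars turned to -0.007; with a library left out these were 4 to 5 and 2441 to 3506. The cause of these changes was not tested. Depth limits the mitochondrial members, with 308 reads over all libraries for Sars2 and 361 for Pars2.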
